A study of Mus musculus with 4 samples.

Results

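Base excision repair is represented here by 10 genes, Ogg1, Mutyh, Nthl1, Neil1, Ung, Apex1, Xrcc1, Parp1, Mpg and Tdg. They were chosen by name, as every gene probe outside the array's controls whose gene name in the scanner files is one of the 10. These are 10 of the 29353 genes on the array, read by 14 of its 40628 gene probes, with 3 probes for Ogg1, 2 each for Mutyh and Tdg and 1 for each of the other 7 genes.

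Base excision repair removes single damaged bases from DNA. A DNA glycosylase recognises the base and cuts it from its sugar, an endonuclease opens the backbone at the abasic site, and a polymerase and a ligase fill and seal the gap, with scaffold and break-sensing proteins holding the intermediates. Its best known substrate in cells under oxidative stress is 8-oxoguanine, a guanine oxidised by reactive oxygen. Ogg1 excises 8-oxoguanine opposite cytosine, Mutyh removes adenine that was put in opposite it, and Nudt1 (MTH1) clears the oxidised nucleotide from the precursor pool.

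RNA came from chemically transformed C3H10T1/2 cells, an established line of mouse embryo fibroblasts, without further exposure (control, 2 arrays) or after exposure to 2 mM phorone (2 arrays). Both groups had first been transformed in culture with 2.5 µg/ml of the carcinogen 3-methylcholanthrene for 2 days and, after 4 days in normal medium, with 100 ng/ml of the tumour promoter TPA, given repeatedly over 2 weeks, and had then grown in normal medium for 4 weeks. Phorone is an unsaturated ketone used to deplete glutathione. The sources used here give neither its vehicle nor how long it was applied. Whether the 2 samples of a group grew as separate cultures is not stated either, so the p-values rest on a spread that may be technical.

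Total RNA was hybridised to 1-colour Agilent arrays, and each level below is log2 of the processed signal relative to the 75th percentile of its array, so that 0 marks that percentile. Between 51.1% and 52.7% of spots outside the controls were well above background, no spot was saturated, and the number of arrays limits the precision. All 10 fibroblast markers examined, among them Col1a1, Vim and Thy1, were well above background on all 4 arrays. The defining markers Cdh1 (epithelium), Ptprc (leukocytes), Pecam1 (endothelium), Adipoq (fat) and Myod1 (skeletal muscle) were not well above background on any array, whereas Krt14, Cd68 and Cd3e were on all 4 and Tek (endothelium) was on both control arrays and neither phorone array. The array positions, read from the scan names, place each group in its own row, so effects of row and of phorone cannot be told apart.

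The array's own 60-base probes show what was measured, and those of the genes that changed are printed 5′ to 3′ as the scanner files give them. The files record no genome position for the 14 probes. No probe named for another gene shares a run of 25 bases with any of them on either strand.
Mutyh probe 1: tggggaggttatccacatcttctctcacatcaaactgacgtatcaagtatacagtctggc
Mutyh probe 2: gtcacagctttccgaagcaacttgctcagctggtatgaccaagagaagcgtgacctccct
Nthl1 probe: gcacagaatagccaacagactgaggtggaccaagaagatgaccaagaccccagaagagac
Apex1 probe: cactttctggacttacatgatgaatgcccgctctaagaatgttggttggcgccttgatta
Xrcc1 probe: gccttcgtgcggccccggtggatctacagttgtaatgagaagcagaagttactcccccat

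The Ogg1 probes overlap one another, so they are repeat readings of 1 stretch of the transcript and not independent measurements of the gene. Probe 2 shares 40 bases with probe 3 without a difference, and overlaps probe 1 over 47 bases with 2 differences, A28C and T47C (probe 2's base, the position from its 5′ end, then probe 1's base). The same differences against probe 3, over 53 bases, are A8C and T27C. The 30 bases of each probe that hold both differing positions, in capitals, are shown because they separate the brightest Ogg1 probe from the other two.
Ogg1 probe 1: aaaCggaactgtcttgttttatCttccctt
Ogg1 probe 2: aaaAggaactgtcttgttttatTttccctt
Ogg1 probe 3: aaaAggaactgtcttgttttatTttccctt

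The transformed cells with and without phorone were compared gene by gene. Ogg1, which excises 8-oxoguanine, was higher with phorone on all 3 of its probes, and Mutyh, which removes the adenine put in opposite it, was lower on its brighter probe. Apex1, the endonuclease of the next step, and the scaffold Xrcc1 were higher by smaller amounts, and Nthl1, a glycosylase for oxidised pyrimidines, was lower. Neil1, Ung, Parp1, Mpg and Tdg did not pass the test. By gene, on the brightest probe of each, 3 members rose, 2 fell and 5 were not called, with a median log2 fold change of 0.23 over the 10, against 0.08 over the 17031 genes with a usable probe. By probe, 5 of 14 were called higher and 3 lower in limma at a Benjamini-Hochberg adjusted p below 0.05. One of the lower calls, the dim Mutyh probe 2, passed the filter through the control arrays alone. Over probes above background on all 4 arrays, 6 of 13 member probes were higher and 2 lower. The counts over all 22217 probes under that filter were 6317 higher and 4447 lower. Calls were common on these arrays: 45.8% of the 24205 probes tested were called, 25.5% higher and 20.3% lower, and by gene 44.9% were called, 23.8% higher and 21.0% lower. Of the called probes 55.6% were higher, and 76.5% under scaling to the spike-in controls. The members' counts are close to that background. All 14 probes passed the filter on dim signals, and 13 were well above background on all 4 arrays.

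**Figure D1:**
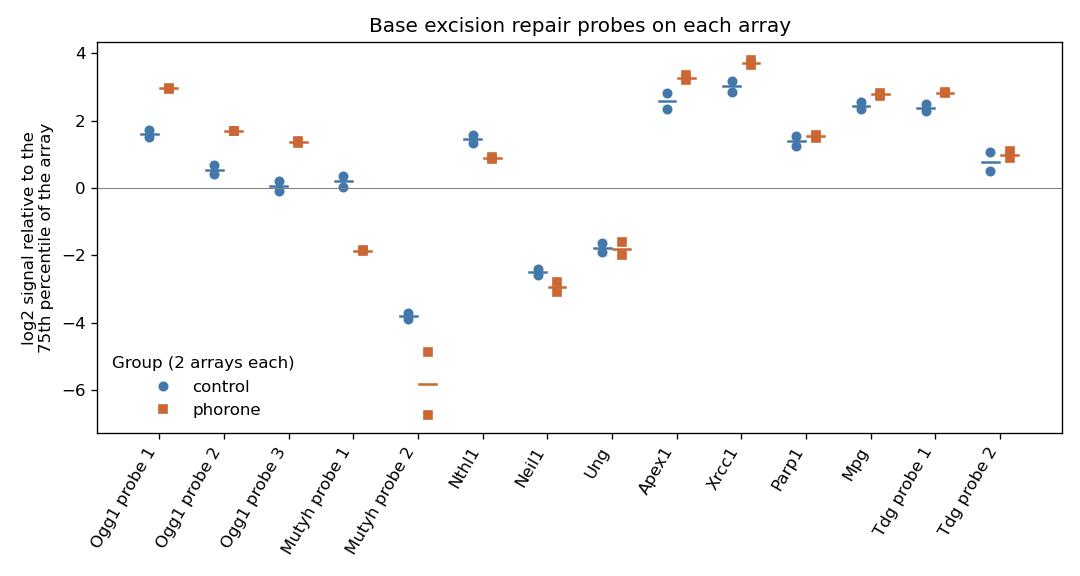
Level of each of the 14 probes on each array (vertical axis, log2 signal relative to the 75th percentile of the array; circles control, squares phorone, 2 arrays each; short lines are group means). The Ogg1 squares lie above the circles on all 3 probes, those of Mutyh below them on both probes, and those of Ung, Parp1 and Tdg probe 2 overlap with the circles.

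Ogg1, the main 8-oxoguanine glycosylase of the nucleus and mitochondria, rose on all 3 probes. On probe 1 the control arrays read 1.71 and 1.50 and the phorone arrays 2.97 and 2.95. On probe 2 it was 0.67 and 0.40 without and 1.69 and 1.69 with phorone, and on probe 3 it was 0.20 and -0.09 without and 1.34 and 1.41 with phorone. Both phorone arrays were above both control arrays on every probe, and the phorone arrays lay closer together than the control arrays did. Probe 1 gave a 2.55-fold higher signal with phorone, 1.35 on the log2 scale with a 95% interval of 1.00 to 1.71 (SE 0.14; adjusted p = 0.00225 in limma). The log2 change was 1.15 on probe 2 (SE 0.15) and 1.32 on probe 3 (SE 0.15), with adjusted p-values of 0.00403 and 0.00310 in limma. The probe that differs from the other two at 2 bases thus changed by as much as they did, and the intervals of all 3 overlap. Of all probes tested, 95.4% had a smaller or more negative change than Ogg1 probe 1. The arrays read a culture as a whole. A change in the share of cells expressing a gene and a change in its RNA per cell therefore cannot be told apart here, for Ogg1 or any gene below.

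Mutyh, the adenine glycosylase that corrects adenine opposite 8-oxoguanine, had the largest change among the 10 genes. On probe 1 the control arrays read 0.03 and 0.37 and the phorone arrays -1.85 and -1.88. The groups lay far apart, with a signal 4.18-fold lower with phorone, or -2.06 on the log2 scale with a 95% interval of -2.48 to -1.65 (SE 0.16; adjusted p = 0.00118 in limma). Only 4.14% of the probes tested had a more negative change. Probe 2, which reads another part of the transcript, was dim, at -3.88 and -3.72 in control and -6.74 and -4.88 in phorone. It was not well above background on either phorone array. Set at the lowest signal well above background, it gives only a bound, at least 1.83-fold lower with phorone. This bound depends on the background correction, since with normexp the change of probe 2 was -0.33 and not called. On the processed signal its fitted change was -2.01 (SE 0.60, adjusted p = 0.0444 in limma). That call of probe 2 was lost without control replicate 1 (-2.09, adjusted p = 0.119) or control replicate 2 (-1.93, adjusted p = 0.144), and the value was -1.08 without phorone replicate 1 and -2.94 without phorone replicate 2. Probe 1 was called with any array left out.

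Nthl1, the glycosylase and lyase for oxidised pyrimidines such as thymine glycol, fell less. The control arrays read 1.35 and 1.56 and the phorone arrays 0.93 and 0.85. The groups did not overlap, and the log2 change was -0.56 with a 95% interval of -0.92 to -0.20 (SE 0.14; adjusted p = 0.0268 in limma). The call was lost without control replicate 2 (-0.46, adjusted p = 0.0662), phorone replicate 1 (-0.60, 0.0886) or phorone replicate 2 (-0.53, 0.137), and under scaling to the spike-in controls the change was -0.052 (adjusted p = 0.941).

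Neil1, which removes ring-opened and other oxidised bases and can act on single-stranded DNA, did not pass the test. It stood at -2.59 and -2.39 without and at -3.10 and -2.80 with phorone. Both phorone arrays were below both control arrays, by -0.46 on the log2 scale with a 95% interval of -0.88 to -0.035 (SE 0.16; adjusted p = 0.0748 in limma). The sign turned under spike-in scaling, to 0.057.

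**Figure D2:**
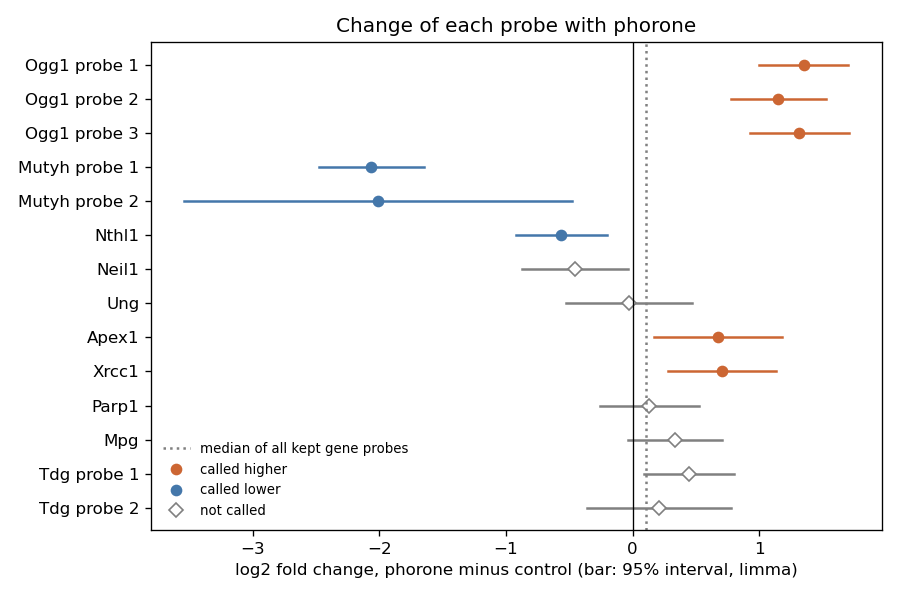
Log2 fold change of each probe, phorone minus control, with its 95% interval from limma (horizontal axis; filled circles called, open diamonds not called; the dotted line is the median of all probes tested, 0.11). The lowest of the 3 Ogg1 intervals starts at 0.78 and the interval of Mutyh probe 1 ends at -1.65, while the called intervals of Apex1, Xrcc1 and Nthl1 come close to 0.

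The member glycosylases for uracil, mismatched thymine and alkylated bases, Ung, Tdg and Mpg, showed no called change. Smug1 and Mbd4, which also act on uracil or mismatched thymine but are not members, were called higher and are described further below. Ung, which excises uracil, stood at -1.63 and -1.91 without phorone, and its phorone arrays fell on either side of both, the higher at -1.60. The groups overlapped, and the change was -0.030 (95% interval -0.53 to 0.47, limma adjusted p = 0.910). The sign of this value turned under spike-in scaling (0.48), with normexp background correction (0.034) and without control replicate 1 (0.11) or phorone replicate 1 (0.17).

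Tdg, which removes thymine from G:T mismatches and oxidised forms of 5-methylcytosine, lay just outside the threshold on its brighter probe. That probe read 2.27 and 2.50 without and 2.85 and 2.81 with phorone, with no overlap, and a change of 0.45 with a 95% interval of 0.087 to 0.81 (SE 0.14; adjusted p = 0.0518 in limma). Without control replicate 2 it was called (0.56, adjusted p = 0.0422). Its dimmer probe read 0.50 and 1.06 without and 1.09 and 0.89 with phorone, and its change of 0.21 (limma adjusted p = 0.473) turned to -0.072 without control replicate 1. The array design lists predicted transcripts for both Tdg probes, 2 for the brighter and 5 for the dimmer. Which genes these belong to was not examined, so it is uncertain whether both readings are of Tdg alone.

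Mpg, the glycosylase for 3-methyladenine and other alkylated purines, read 2.33 and 2.56 without and 2.73 and 2.83 with phorone. The groups did not overlap, but the change of 0.33 did not pass the test (95% interval -0.035 to 0.70, limma adjusted p = 0.115). It was 0.22 when control replicate 1 was left out and 0.85 under spike-in scaling, neither called.

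Downstream of the glycosylases, Apex1 and Xrcc1 rose. Apex1, the major abasic-site endonuclease, also known as Ref-1 for its action on transcription factors, read 2.36 and 2.83 without and 3.34 and 3.19 with phorone. Its control arrays lay further apart than its phorone arrays, and the change was 0.67 with a 95% interval of 0.17 to 1.18 (SE 0.20; adjusted p = 0.0421 in limma). The call was lost without control replicate 1 (0.44, adjusted p = 0.0821), phorone replicate 1 (0.60, 0.129) or phorone replicate 2 (0.75, 0.0748).

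Xrcc1, the scaffold that gathers polymerase beta and ligase III at single-strand breaks, read 2.85 and 3.19 without and 3.80 and 3.66 with phorone. The groups did not overlap, and the signal was 1.63-fold higher, a change of 0.71 with a 95% interval of 0.28 to 1.13 (SE 0.17; adjusted p = 0.0228 in limma). It was no longer called without control replicate 1 (0.54, adjusted p = 0.0512), phorone replicate 1 (0.64, 0.0887) or phorone replicate 2 (0.78, 0.0526).

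Parp1, which senses strand breaks and marks them with poly(ADP-ribose) chains that recruit Xrcc1, read 1.54 and 1.26 without and 1.58 and 1.48 with phorone. The groups overlapped, and the change was 0.13 (95% interval -0.26 to 0.53, limma adjusted p = 0.509), and the value without control replicate 2 was -0.0086. In all, 11 of the 14 probes had groups that did not overlap, against 77.9% of all probes tested.

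Leaving out single arrays moved the members' calls. Without control replicate 1, phorone replicate 1 or phorone replicate 2, the only member probes called higher were those of Ogg1. Without control replicate 2, those of Apex1, Xrcc1 and the brighter Tdg probe were called higher too. Calls over all probes were fewer each way in every one of these settings than with all 4 arrays. With phorone replicate 2 left out, more of all probes were called lower than higher.

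**Figure D3:**
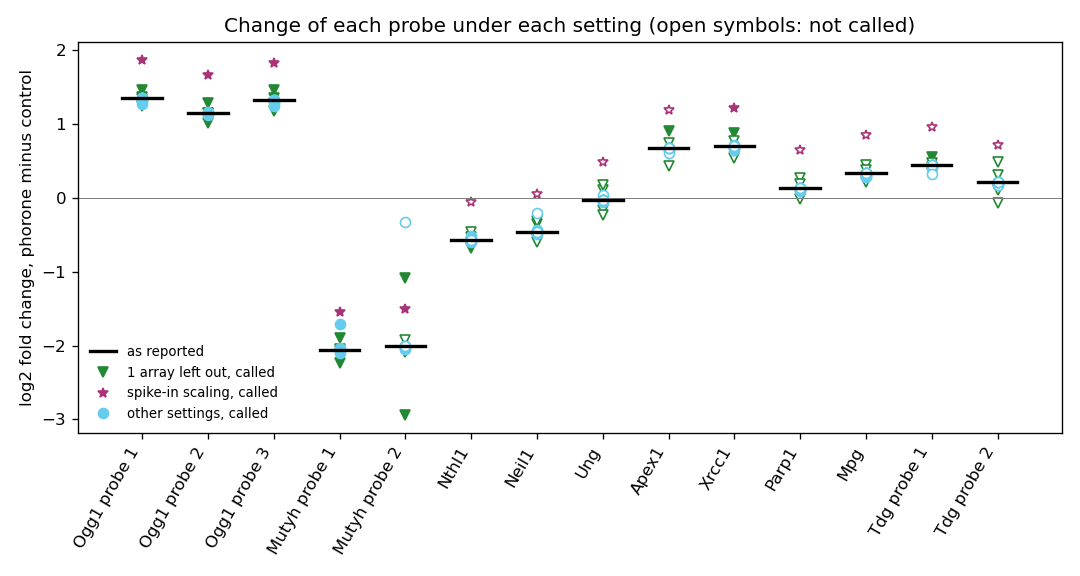
Log2 fold change of each probe (vertical axis) as reported (black line) and under each other setting (triangles, 1 array left out; stars, spike-in scaling; circles, other settings; open symbols not called). The symbols of the 3 Ogg1 probes and of Mutyh probe 1 are filled under every setting run, and the stars lie 0.51 above the black lines throughout.

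The other genes of the pathway were read on the brightest probe of each, from 6 lists. Of 37 listed genes 36 were measured, Neil2 being too dim, and 18 rose, 4 fell and 14 were not called, with a median log2 fold change of 0.39. Among all genes measured the same way 23.8% were higher and 21.0% lower. The counts were 15 and 2 without control replicate 1, 14 and 0 without control replicate 2, 11 and 0 without phorone replicate 1 and 9 and 1 without phorone replicate 2. Under spike-in scaling they were 11 and 0. Calls over all probes were also fewer in each of these settings, and the shares of all genes given here are those with all 4 arrays. At an unadjusted p below 0.05 in limma, the settings with 0 lower genes had 3 lower when control replicate 2 was left out, 2 when phorone replicate 1 was, and 0 under spike-in scaling. Of the 22 called genes, 9 were called under all 16 settings run. Smug1, Neil3, Polb, Pold4, Parp2, Parg, Hpf1, Nudt1, Samhd1 and Mgmt, described next, were not called under spike-in scaling, nor, apart from Parp2, with no filter on dim probes.

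Among the other glycosylases 2 rose and 1 fell. Mbd4, which removes thymine and uracil at methylated CpG sites, was higher by 1.10 (adjusted p = 0.00416 in limma), with 0.72 on its other probe, not called. Even its brighter probe was dim, at -3.18 and -3.42 without and -2.18 and -2.21 with phorone. The size of its change depends on the background correction, being 0.64 with normexp, still called. Smug1, another uracil glycosylase, was higher by 0.56 (limma adjusted p = 0.0442), but was not called with any 1 array left out (0.41 to 0.70). Neil3, a relative of Neil1 active in dividing cells, was lower by 0.96 (limma adjusted p = 0.0218), a call kept only without phorone replicate 2 among the leave-outs.

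Of 6 genes listed for the short patch, in which 1 base is filled, 3 rose and 0 fell, also 0 at an unadjusted p below 0.05 in limma. The list is wider than the enzymes that fill and seal the gap: Aplf and Apex2 are neither its polymerase nor its ligase. Aplf, a histone chaperone that binds poly(ADP-ribose) at breaks, rose by 1.25 and Apex2, a relative of Apex1, by 1.05, and both calls held under all settings. Polb, the polymerase that fills the single-base gap, rose by 0.61 (limma adjusted p = 0.0210), with values of 0.50 to 0.63 that missed the threshold when control replicate 2, phorone replicate 1 or phorone replicate 2 was left out. Lig3, the ligase partner of Xrcc1, was not called (0.18).

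Of 12 genes of the long patch, which uses replication proteins, 7 rose and 1 fell. Pold3, a subunit of polymerase delta, rose by 1.36 (1.20, called, and 0.57, not called, on its other probes), Rfc3, a subunit of the clamp loader, by 0.94, and Pcna, the sliding clamp, by 0.93, all with limma adjusted p-values between 0.00240 and 0.00841. Rfc4, another clamp loader subunit, rose by 0.88 and Fen1, the flap endonuclease, by 0.85, whereas the ligase Lig1 was not called (0.24). Pold4, the smallest polymerase delta subunit, fell by 0.45, was not called with any 1 array left out, and stood at 0.062 under spike-in scaling.

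Of 6 genes of poly(ADP-ribose) metabolism, 4 rose and 0 fell, also 0 at an unadjusted p below 0.05 in limma. Chd1l, a chromatin remodeller activated by poly(ADP-ribose), rose by 0.88, Parp2, another break-sensing polymerase, by 0.65, and Parg, which degrades the chains, by 0.58. Hpf1, the cofactor that directs these polymerases to serine, was the other (0.53). Only Chd1l was called without phorone replicate 1 or phorone replicate 2.

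Of 6 genes that clean or limit the nucleotide pool, 2 rose and 1 fell. Itpa, which destroys deaminated purine nucleotides, rose by 0.80 and by 0.76 and 0.81 on its other probes, and Nudt1 by 0.59. Itpa was not called without phorone replicate 2 (0.70, adjusted p = 0.0627). Nudt1 read 1.03 on average with phorone against 0.44 without. The Nudt1 call was lost without control replicate 1 (0.48, adjusted p = 0.0523), phorone replicate 1 (0.61, 0.0858) or phorone replicate 2 (0.57, 0.111). Samhd1, which breaks down deoxynucleotides, fell by 0.48, but stood at 0.032 under spike-in scaling. Its call was lost when control replicate 2 (-0.40, adjusted p = 0.0979), phorone replicate 1 (-0.42, 0.211) or phorone replicate 2 (-0.55, 0.120) was left out. With phorone replicate 2 left out 0 of the 6 were called in limma, with 2 higher and 1 lower at an unadjusted p below 0.05.

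Of 3 genes that reverse base damage directly, 0 rose, also 0 at an unadjusted p below 0.05 in limma, and 1 fell. Mgmt, which takes alkyl groups from guanine, was lower by 0.55 (limma adjusted p = 0.0298), with no call without control replicate 2 (-0.43), phorone replicate 1 (-0.56) or phorone replicate 2 (-0.54). Under spike-in scaling it stood at -0.039.

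**Figure D4:**
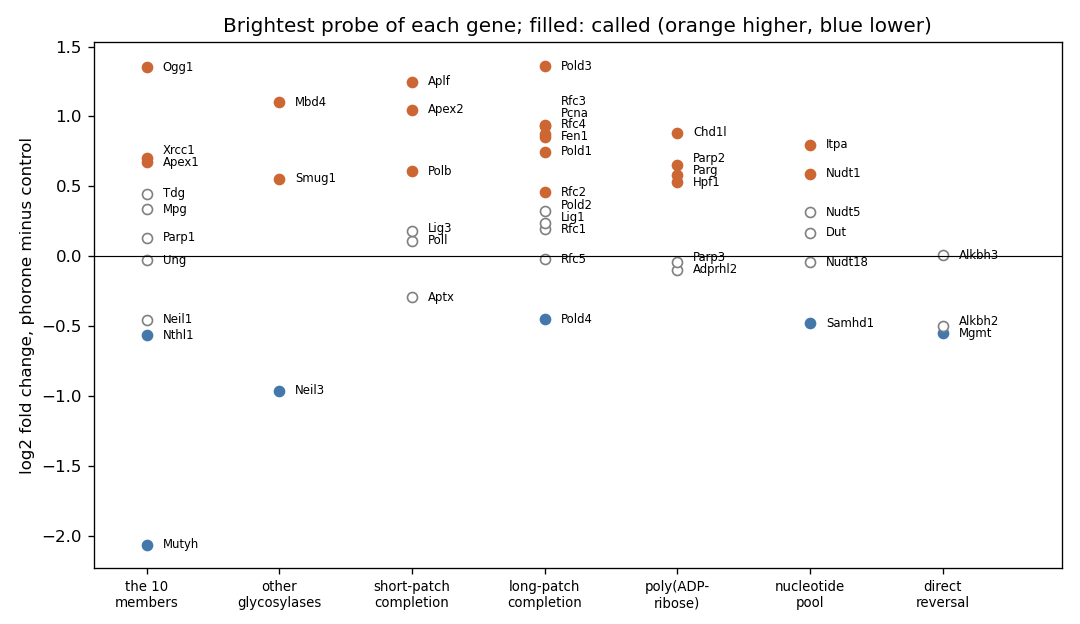
Log2 fold change of the brightest probe of each gene (vertical axis), for the 10 members and the 6 lists (filled symbols called, open symbols not called). Ogg1 and Pold3 are the highest points, at 1.35 and 1.36, and Mutyh is the lowest, at -2.06, below every listed gene.

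For Ogg1 and Mutyh, the members with the largest called rise and fall, the genes with the most similar pattern over the 4 arrays were sought among 11206 candidates. The measure was the root mean square difference of values centred on each gene's mean. Candidates were detected on all 4 arrays and had a RefSeq symbol not of Gm, Rik or LOC form, and the member itself was left out. Closest to Ogg1 were BC055324 (0.013), Tacc2 (0.030) and Rbm14 (0.033). Closest to Mutyh were Cntln (0.030), Ccnd1 (0.033) and Mmp2 (0.033). BC055324 read 1.64 and 1.45 without and 2.92 and 2.91 with phorone, and Ccnd1, cyclin D1, read 3.45 and 3.72 without and 1.57 and 1.54 with phorone. With 4 arrays and 11206 candidates, close matches are easily found. Whether these genes share any control with Ogg1 or Mutyh was not tested.

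Promoter windows of 300 bases, from 250 before to 50 after the RefSeq start on GRCm38.p6, were found for all 10 genes, 11 windows in all because Mutyh has 2. The core of the antioxidant response element, TGACNNNGC on either strand, occurred in 1 of them, that of Neil1, and in 12.4% of 32851 windows of all genes. The E-box CACGTG occurred in 3, those of Apex1, Parp1 and Tdg, against 7.15% of all windows. The GC box GGGCGG occurred in 7, against 35.7% of all windows. At least 3 E-boxes were held by 29 of all windows (0.0883%). That threshold was set by the count in Apex1 itself, so the share is not a test. The Apex1 window had 3 E-boxes. The 30 bases that hold 2 of them, with the E-boxes in capitals and a GC box between them, lie at chr14:50924925-50924954 on the plus strand of GRCm38.p6 and are shown as a pair of neighbouring E-boxes in this promoter.
Apex1 promoter: CACGTGggggcggagccctcgaatCACGTG
These are matches of letters and not measured sites.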

How the data were processed

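Intensity values were deposited as scanner files; per the file headers they came from Agilent Feature Extraction 10.7.3.1 with Cy3 as the single dye, background-subtracted and detrended within each array, with no normalisation across arrays. Log2 values in the authors' deposited table have the upper quartile of each array at 0 (column medians -4.39, -4.35, -4.37 and -4.30), matching the scanner values with an SD of at most 0.0223. Here log2 signals minus each array's 75th percentile were averaged per probe without outlier-flagged spots (71 gene probes lost). Probes well above background on both arrays of a group were kept, 24205 in all, and tested with limma 3.58.1 in R 4.3.3 (two-sided, 2 residual and 3.08 prior degrees of freedom, Benjamini-Hochberg over all probes). The fit was also run on simulated data in which far fewer probes changed than were called here. The error rate of the fit in these data was not measured. The bound of a dim probe sets it at the lowest signal well above background. Symbols came from RefSeq for 28136 gene probes. Every member probe was named, with up to 3 called genes each way per list; Lig3, Rfc4, Fen1, Lig1 and Hpf1 were named after their values were seen. Some genes of the lists as first written are not reported here. Members and lists were chosen with earlier results of these data known. Alternatives were other scalings, background corrections, filters and probe choices, a replicate block, the deposited table and leaving out each array.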

Additional observations from a re-analysis of the deposited data

How the results depend on the processing

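Of 201 values of the 14 probes under the alternatives, 165 kept their direction and their side of the threshold, 23 lost the call, 6 gained one and 7 changed sign, none of those 7 called. The Ogg1 probes and Mutyh probe 1 were called under every alternative run (Ogg1 probe 1 from 1.25 to 1.86, Mutyh probe 1 from -2.24 to -1.55).

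Scaling to the spike-in controls added 0.51 to every change and moved the median of all probes from 0.11 to 0.62. Relative to that median Ogg1 probe 1 stood 1.25 above and Mutyh probe 1 at -2.17 under both. The spike-in level itself differed by 0.81 between the control arrays. Under it, calls over all probes were 4534 higher and 1395 lower (76.5% higher, against 55.6%), 1 member was lower by gene, the pathway lists held 11 higher and 0 lower, and Nthl1 (-0.052), Apex1 (1.19), Neil1 (0.057) and Ung (0.48) lost a call or changed sign. Pold4 (0.062) and Samhd1 (0.032) also changed sign. With no filter, 3823 probes were higher in all, 3 member probes were higher and 1 lower, 1 gene each way, the lists held 12 and 0, and Mutyh probe 2 (-2.01), Nthl1 (-0.56), Apex1 (0.67) and Xrcc1 (0.71) were not called. The fitted change is unchanged by the filter; more probes are tested and the spread is estimated anew.

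Apex1 was not called under quantile normalisation (0.61) or with noncoding probes (0.67), where Mutyh probe 2 (-2.01) was not either. Neil1 was called under median scaling (-0.49). With normexp Mutyh probe 2 was at -0.33 and not called, Ung at 0.034, and Tdg probe 1 was called (0.45), as it was with the deposited table (0.45), the all-array filter (0.45) and 1 probe per gene (0.45). The cause of these differences was not tested.

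Replicate numbers gave no sign of pairing (correlation of deviations -0.041, 2 pairs). With the replicate block 5252 probes were higher and 4501 lower, 1 member was lower by gene, 1 list gene was lower, and Nthl1 (-0.56) and Apex1 (0.67) were not called.

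With each array left out in turn, a lone array being assumed to vary like the others, calls over all probes ranged from 3501 to 5812 higher and 3599 to 4750 lower, member probes from 3 to 6 higher and 1 to 2 lower, members by gene from 1 to 4 higher and 1 to 2 lower, and list genes from 9 to 15 higher and 0 to 2 lower. Mutyh probe 2 ranged from -2.94 to -1.08, Nthl1 from -0.67 to -0.46, Apex1 from 0.44 to 0.91, Xrcc1 from 0.54 to 0.88, Ung from -0.23 to 0.17, Parp1 from -0.0086 to 0.27, Tdg probe 1 from 0.33 to 0.56 and Tdg probe 2 from -0.072 to 0.49.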
